A study of Mus musculus with 7 samples.

Results

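The genes described here are 9 mouse orthologs of genes in the human 22q11 deletion region, namely Crkl, Dgcr2, Hira, Med15, Dgcr8, Cdc45, Ranbp1, Mrpl40 and Txnrd2. They were chosen by symbol, with no measured value in the rule, and all 9 were found among the 19144 symbols of the expression table. All 9 also averaged 1 FPKM or more across libraries, the filter that left 11039 genes to test. Tbx1, the best known gene of the region, is not among the 9 and is given beside them.

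The sequenced RNA came from sorted GFP-positive cells of mouse pharyngeal arches 3 to 6 at embryonic stage E10.5. There were 3 libraries labelled Chd7 deletion (Wnt1-Cre2, Chd7 loxp/loxp, mTmG) and 4 labelled wild type (Wnt1-Cre2, Chd7 +/+, mTmG). Wnt1-Cre2 is a recombinase expressed in the neural crest lineage, and mTmG is a reporter that turns on GFP where the recombinase has acted, so both groups carried both alleles. The stated cross used mothers with floxed Chd7 on both chromosomes, which would leave a floxed copy in every embryo. The wild-type genotype is therefore given as labelled. CHD7 is a chromatin remodelling enzyme that is mutated in human CHARGE syndrome. The study asked which genes lie downstream of it in the cardiac neural crest.

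Loss of a stretch of 1 chromosome at human 22q11 causes DiGeorge syndrome, in which the outflow tract of the heart, the thymus, the parathyroid glands and the face can be malformed. Many of these structures form from the pharyngeal arches and receive neural crest cells, and the features of the syndrome overlap with those of CHARGE syndrome. The genes of the region have unrelated functions and are grouped in the mouse on chromosome 16. Their shared property is their position, and the comparison here asks whether their transcripts changed when Chd7 was deleted.

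None of the 9 genes passed the test for a difference after Chd7 deletion, against 0.888% of all genes tested (98 of 11039, limma, adjusted p under 0.05 in either direction). At an unadjusted p under 0.05 the count for the 9 genes was 0 as well, against 815 genes of the table. Leaving out single libraries gave 4 to 78 called genes, with none of the 9 among them; the counts were 4 without wild type 3, 4 without Chd7 deletion 4 and 12 without Chd7 deletion 3. All 9 had a log2 fold change below 0, as did 65.4% of all genes, and their median was -0.09 against -0.04 for all genes tested. The log2 fold change is the mean over Chd7 deletion libraries minus the mean over wild-type libraries of log2(FPKM + 1), where FPKM is the read number scaled for gene length and library total. With libraries rescaled by their median ratio, 8 of the 9 were below 0, with a median of -0.04 against -0.0011 for all genes. Without Chd7 deletion 1, and with no rescaling, 6 were below 0, with a median of -0.03 against 0.016 for all genes.

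The targeted gene gives the scale of a change that these libraries showed. Chd7 had 7.50, 7.72 and 7.91 FPKM in Chd7 deletion libraries 1, 3 and 4, against 13.97, 13.9, 14.6 and 14.3 FPKM in wild-type libraries 1 to 4. Its log2 fold change was -0.80 with a 95% interval of -0.94 to -0.66, which is a fold of 0.52 to 0.633 on the log2(FPKM + 1) scale. For the 9 genes the lower bounds of that interval lay at folds of 0.65 to 0.859 and the upper bounds at 1.03 to 1.23, and all 9 intervals included no change. Reads from any exon count towards Chd7, also those of a transcript that lost just its floxed exons, and which exons were floxed is not stated in the labels.

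**Figure D1:**
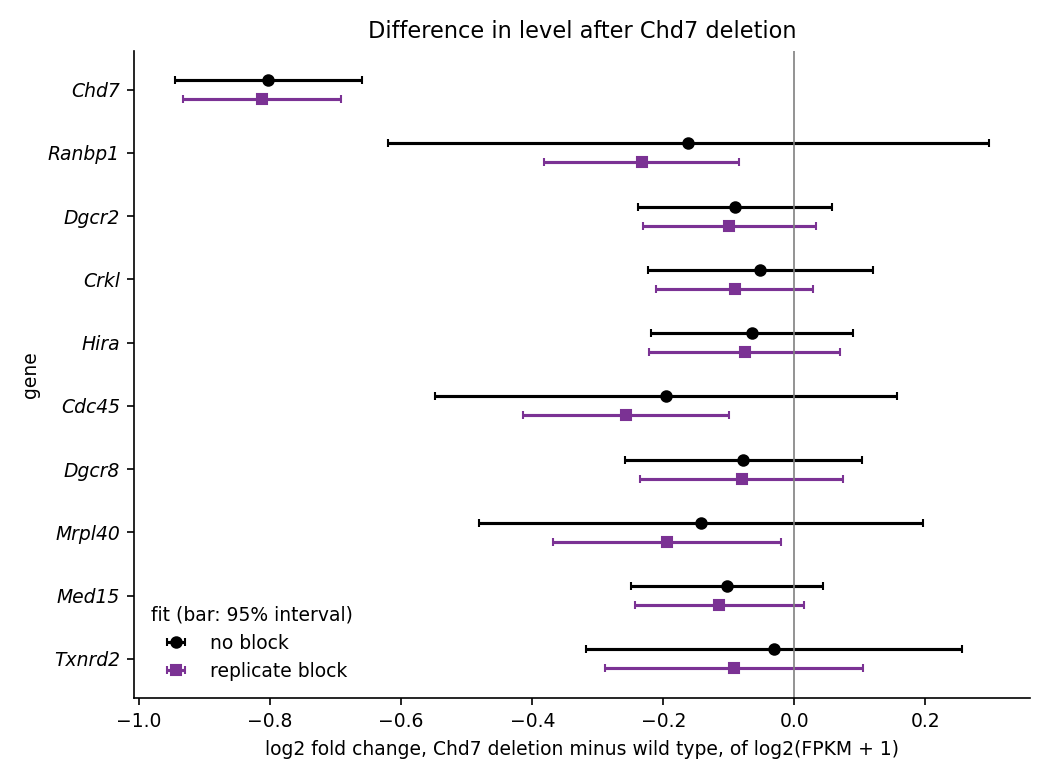
Log2 fold change of log2(FPKM + 1) on the horizontal axis, Chd7 deletion minus wild type, for Chd7 and the 9 genes of the 22q11 region. Points are limma estimates and bars 95% intervals, without (circles) and with (squares) the replicate number as a block. Chd7 lies at -0.80, and the 9 genes lie between -0.20 and -0.03 without the block.

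Crkl and Dgcr2 act in signalling and adhesion. Crkl encodes an adaptor protein that links receptor tyrosine kinases and integrins to Ras-family and Rac signalling, and mice that lack it have defects of the heart and of arch derivatives. It lies on chromosome 16 of mm10 from 17451987 to 17487434. Its levels were 19.1, 19.8 and 20.5 FPKM in Chd7 deletion libraries 1, 3 and 4, against 20.2, 18.9, 21.3 and 21.9 FPKM in wild-type libraries 1 to 4. The groups overlapped, the highest Chd7 deletion library being above the 2 lower wild-type ones. Its log2 fold change was -0.05 (SE 0.0753, limma, adjusted p = 0.956), with a 95% interval of -0.22 to 0.12.

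Dgcr2 encodes a membrane protein with features of an adhesion receptor, and it lies from 17839482 to 17898562. It had 27.8, 29.0 and 28.8 FPKM in Chd7 deletion libraries 1, 3 and 4, against 31.3, 29.9, 30.2 and 30.6 FPKM in wild-type libraries 1 to 4. Every Chd7 deletion library lay below every wild-type one. The means were 28.6 ± 0.641 FPKM (SD, n = 3) after deletion and 30.5 ± 0.597 FPKM (SD, n = 4) in the wild type, so the level after deletion was 93.7% of the wild type. The log2 fold change was -0.09 (SE 0.065, limma, adjusted p = 0.925).

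Of the chromatin and transcription genes, Hira encodes the core subunit of a chaperone that places histone H3.3 into chromatin outside replication. It lies from 18877037 to 18970309. It had 15.5, 15.3 and 14.8 FPKM in Chd7 deletion libraries 1, 3 and 4, against 15.4, 15.6, 15.8 and 17.1 FPKM in wild-type libraries 1 to 4. The groups overlapped, wild type 4 being the highest of the 7 libraries, and the log2 fold change was -0.07 (SE 0.0676, limma, adjusted p = 0.951).

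Med15 encodes a tail subunit of Mediator, the complex that links transcription factors to RNA polymerase II, and lies from 17651208 to 17732891. It had 6.24, 6.41 and 6.38 FPKM in Chd7 deletion libraries 1, 3 and 4, against 6.76, 6.69, 6.8 and 7.3 FPKM in wild-type libraries 1 to 4. The groups did not overlap here either, and the Chd7 deletion libraries were the tighter group. For Med15 the log2 fold change was -0.10 (SE 0.0641, limma, adjusted p = 0.897), at 92.1% of the wild-type mean.

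Dgcr2 and Med15 were thus 2 of 9 genes (22.2%) whose Chd7 deletion values lay wholly below the wild-type values, against 6.17% of all genes tested. That separation was lost when the libraries were rescaled by their median ratio, and none of the 9 genes then separated, against 5.84% of all genes. Rescaled, Dgcr2 ran from 27.5 to 31.0 in Chd7 deletion and from 28.2 to 31.8 in wild-type libraries, and Med15 from 6.06 to 6.95 in Chd7 deletion and from 6.45 to 7.01 in wild-type libraries. The factor was lowest for Chd7 deletion 1, at 0.898, and highest for wild type 4, at 1.08.

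Dgcr8 encodes the RNA-binding partner of Drosha in the microprocessor, which cuts primary microRNA transcripts. It lies from 18253948 to 18289246, and its annotated end overlaps Trmt2a on the other strand by 825 bases. Its levels were 9.53, 10.9 and 10.3 FPKM in Chd7 deletion libraries 1, 3 and 4, against 10.2, 10.8, 10.52 and 11.9 FPKM in wild-type libraries 1 to 4. The ranges overlapped, with Chd7 deletion 1 lowest and wild type 4 highest of the 7. For Dgcr8 the log2 fold change was -0.08 (SE 0.0794, limma, adjusted p = 0.951).

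The genes of replication and nuclear transport varied more between libraries. Cdc45 encodes a subunit of the helicase that unwinds DNA at replication forks, and lies from 18780447 to 18811987. It had 7.98, 11.2 and 12.3 FPKM in Chd7 deletion libraries 1, 3 and 4, against 10.8, 10.4, 12.4 and 14.6 FPKM in wild-type libraries 1 to 4. Within each genotype the libraries numbered 3 and 4 were above those numbered 1 and 2, and the genotypes overlapped. Its log2 fold change over all 7 libraries was -0.20 (SE 0.154, limma, adjusted p = 0.933), and its 95% interval of -0.55 to 0.16 was wide. Without Chd7 deletion 1 it was -0.03, and leaving out other libraries gave down to -0.31.

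Ranbp1 encodes a cofactor of RanGAP in the Ran GTPase cycle, which gives direction to transport through the nuclear pore. It lies from 18239784 to 18248732. It had 33.1, 52.2 and 48.6 FPKM in Chd7 deletion libraries 1, 3 and 4, against 39.3, 42.2, 57.9 and 60.6 FPKM in wild-type libraries 1 to 4. The spread within a genotype (SD 10.1 FPKM, n = 3, and 10.8 FPKM, n = 4) was about as large in both groups, and larger than the difference between the means of 44.6 FPKM after deletion and 49.98 FPKM in the wild type. Ranbp1 had a log2 fold change of -0.16 (SE 0.201, limma, adjusted p = 0.954).

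The genes of mitochondrial proteins were the lowest in level with Med15. Mrpl40 encodes a protein of the large subunit of the mitochondrial ribosome and lies from 18872018 to 18876862. It had 5.31, 8.41 and 7.74 FPKM in Chd7 deletion libraries 1, 3 and 4, against 7.12, 6.95, 8.76 and 8.83 FPKM in wild-type libraries 1 to 4. Chd7 deletion 1 stood below all other libraries, while Chd7 deletion 3 and 4 lay among the wild-type values. Mrpl40 had a log2 fold change of -0.14 (SE 0.149, limma, adjusted p = 0.951).

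Txnrd2 encodes the mitochondrial thioredoxin reductase, which keeps thioredoxin reduced for the removal of peroxides. It lies from 18426384 to 18479073. It had 3.4, 4.66 and 3.94 FPKM in Chd7 deletion libraries 1, 3 and 4, against 3.66, 3.49, 4.33 and 5.0 FPKM in wild-type libraries 1 to 4. The values of the groups interleave, and the log2 fold change of -0.03 was the nearest to 0 of the 9 (SE 0.126, limma, adjusted p = 0.983).

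**Figure D2:**
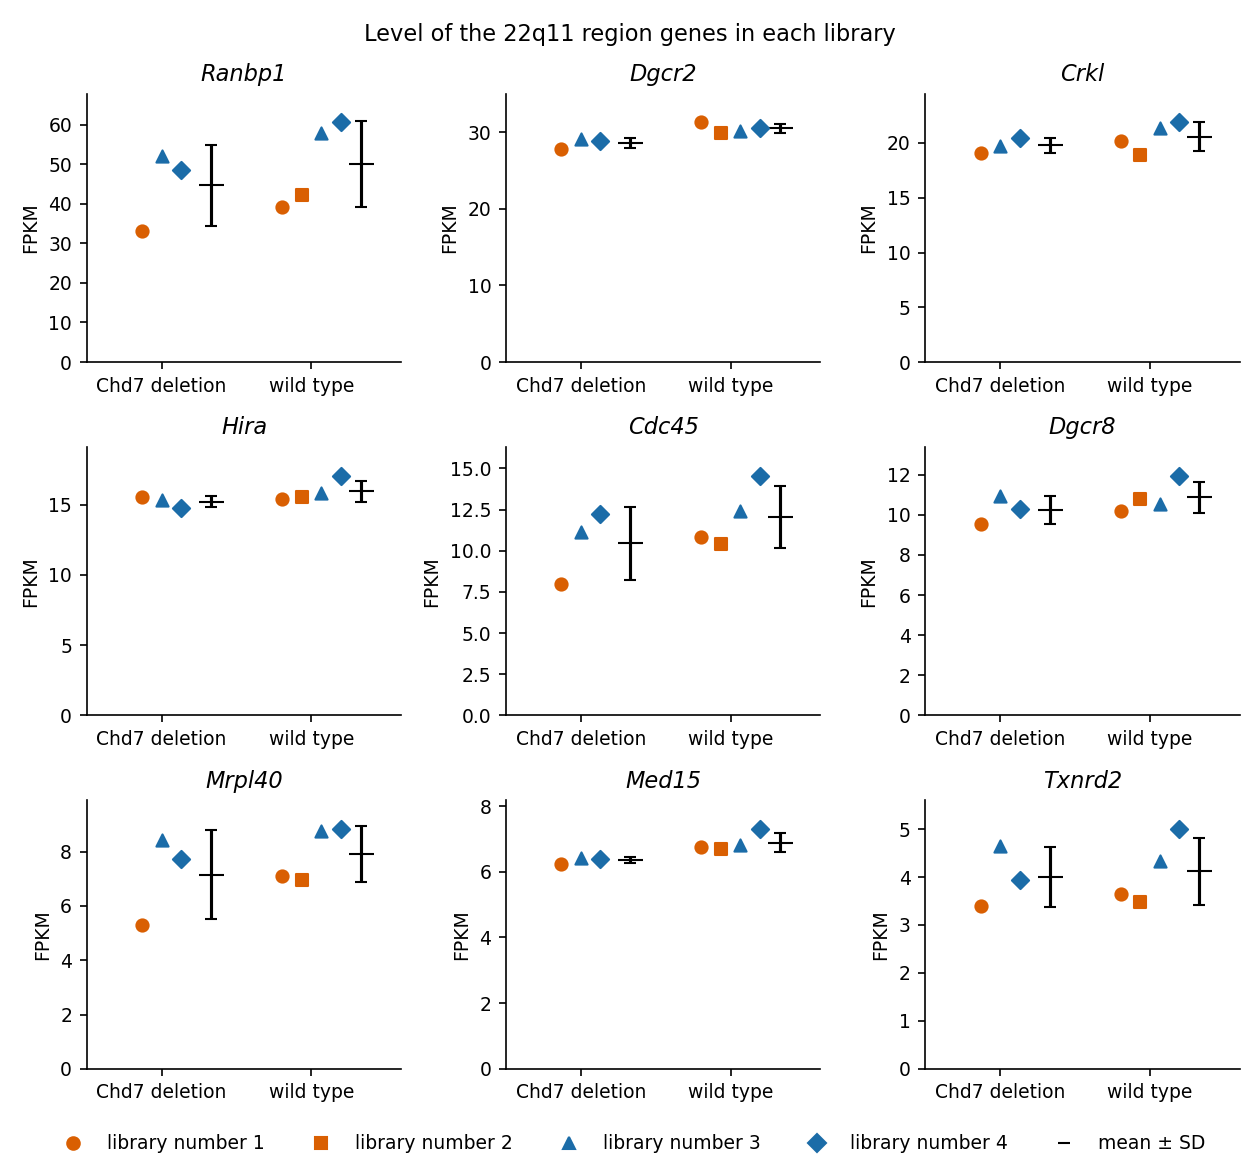
FPKM of each of the 9 genes (vertical axis, from 0) in the 3 Chd7 deletion and 4 wild-type libraries, with the mean and SD beside each group. Marker shape gives the library number, and colour separates numbers 1 and 2 from 3 and 4. Ranbp1, Cdc45, Mrpl40 and Txnrd2 are higher in numbers 3 and 4 in both groups, while Dgcr2 and Med15 are close to level.

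In both genotypes the order of mean levels was Ranbp1, Dgcr2, Crkl, Hira, Cdc45, Dgcr8, Mrpl40, Med15 and Txnrd2. In wild-type libraries the means placed Ranbp1 above 94.8% and Txnrd2 above 32.5% of all genes tested. Neighbours in this order were separate in every library range except for Cdc45 with Dgcr8 and Mrpl40 with Med15, whose ranges overlapped in each genotype. The 9 transcripts were thus present at levels between 3.4 and 60.6 FPKM in all 7 libraries. Tbx1, which encodes a T-box transcription factor expressed mainly in arch endoderm and mesoderm, had 2.71, 3.36 and 2.86 FPKM in Chd7 deletion libraries 1, 3 and 4. In wild-type libraries 1 to 4 it had 3.2, 2.98, 3.16 and 3.11 FPKM. The groups overlapped, and its log2 fold change was -0.05 (limma, adjusted p = 0.957).

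The depth of each library relative to wild type 1 was estimated from whole-read steps among low values. It ran from 0.865 to 1.123 in Chd7 deletion and from 0.912 to 1.29 in wild-type libraries. For 6 of the 9 genes the values came out as whole reads (or fragments, as the unit counted is not stated), within 0.02 of a read in every library. The smallest such read numbers were 197 to 287 for Mrpl40 and 203 to 287 for Txnrd2 in Chd7 deletion libraries, against 235 to 296 and 218 to 272 in the wild type. They were 628 to 807 for Cdc45, 625 to 794 for Med15, 992 to 1438 for Ranbp1 and 1811 to 2474 for Hira in Chd7 deletion libraries. The wild-type libraries held 759 to 940, 754 to 977, 1047 to 1537 and 2185 to 2849 reads for the same genes.

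For Ranbp1, Cdc45, Mrpl40, Txnrd2, Crkl and Med15 the libraries numbered 3 and 4 stood above those numbered 1 and 2 in each genotype, by a small margin for Crkl and Med15. After deletion, Ranbp1 averaged 50.4 FPKM in libraries 3 and 4, against 33.1 FPKM in library 1, a ratio of 1.52. In the wild type it averaged 59.2 FPKM in libraries 3 and 4, against 40.7 FPKM in libraries 1 and 2, a ratio of 1.45. The same ratio was 1.47 after deletion and 1.27 in the wild type for Cdc45. For Mrpl40 it was 1.52 after deletion and 1.25 in the wild type, and for Txnrd2 it was 1.26 after deletion and 1.31 in the wild type. For Crkl it was 1.05 after deletion and 1.11 in the wild type, and for Dgcr8 1.11 after deletion and 1.07 in the wild type. Hira had a ratio of 0.969 after deletion and 1.06 in the wild type. For Dgcr2 it was 1.04 after deletion and 0.993 in the wild type, and for Med15 it was 1.02 after deletion and 1.05 in the wild type. The labels name no batch behind these numbers, and these contrasts are given without a test.

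**Figure D3:**
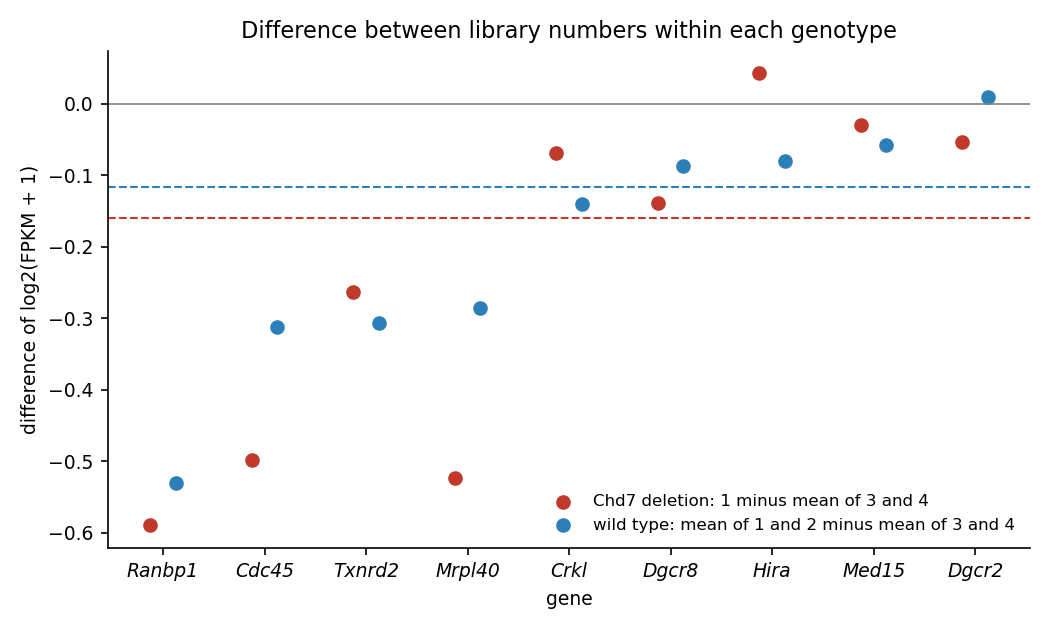
Difference of log2(FPKM + 1) between library numbers for each of the 9 genes, within Chd7 deletion (library 1 minus the mean of 3 and 4) and within the wild type (mean of 1 and 2 minus mean of 3 and 4). Dashed lines are the medians over all genes tested, -0.16 in Chd7 deletion and -0.12 in the wild type. Ranbp1 lies at -0.59 in Chd7 deletion and -0.53 in the wild type.

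Other measures moved with the library number too. The summed level of 8 neuronal marker genes was 388, 350 and 226 FPKM in Chd7 deletion libraries 1, 3 and 4, against 409, 338, 298 and 211 FPKM in wild-type libraries 1 to 4, and none of the 8 markers was at 0 in all libraries. Rn45s, the precursor of ribosomal RNA, took 8.68%, 5.03% and 4.84% of the summed FPKM in Chd7 deletion libraries 1, 3 and 4, against 7.15%, 6.56%, 4.36% and 4.11% in wild-type libraries 1 to 4. Their part in the differences of Ranbp1, Cdc45, Mrpl40 and Txnrd2 was not tested. In bulk RNA, fewer cells of a type and less RNA per cell cannot be told apart. The 12 markers of neural crest and arch mesenchyme summed to 166 to 206 FPKM in Chd7 deletion and 178 to 233 FPKM in wild-type libraries. Of these 12, 2 were called higher and 1 lower after deletion, against 0.888% of all genes tested, and none was at 0 in all libraries. In Chd7 deletion libraries the 8 endothelial markers summed to 3.99 to 7.23 FPKM, the 6 immune markers to 0.902 to 1.83 FPKM and the 7 blood markers to 13.0 to 33.0 FPKM. In wild-type libraries the same sums were 4.73 to 6.81, 0.909 to 1.37 and 12.7 to 21.1 FPKM. Epithelial and endodermal markers (8) summed to 11.5 to 17.8 FPKM in Chd7 deletion and 12.6 to 16.7 FPKM in wild-type libraries. Heart and skeletal muscle markers (8) summed to 17.5 to 26.2 FPKM in Chd7 deletion and 12.2 to 27.1 FPKM in wild-type libraries.

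Within the libraries numbered 3 and 4 (2 of each genotype) all 9 genes had a log2 fold change below 0, from -0.23 for Ranbp1 to -0.07 for Dgcr2, and none passed the test (limma, lowest adjusted p = 0.294), against 1.26% of all genes. At an unadjusted p under 0.05 there was 1 of the 9, against 11.3% of all genes. A fit with the replicate number blocked gave log2 fold changes of -0.26 for Cdc45, -0.23 for Ranbp1 and -0.20 for Mrpl40, with 0 of the 9 called (lowest adjusted p = 0.0962), against 3.32% of all genes. With no Chd7 deletion library numbered 2, wild type 2 adds nothing to the genotype difference under this block, which rests on numbers 1, 3 and 4. At an unadjusted p under 0.05 the count was 3 of 9 in that fit, against 22.8% of all genes. With the library set (numbers 1 and 2 against 3 and 4) as a covariate instead, Ranbp1 was called (log2 fold change -0.25, adjusted p = 0.0287), 1 gene of the 9 against 4.99% of all genes called lower. That call was lost when the libraries were also rescaled (-0.18, adjusted p = 0.0677).

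Cdc45, Mrpl40 and Ranbp1 were lower in Chd7 deletion 1 than in both wild-type libraries numbered 1 and 2. In that set their log2 fold changes were -0.37, -0.35 and -0.29, and limma called all 3 (adjusted p = 0.0025, 0.0117 and 0.0036). With a single Chd7 deletion library in it, this fit took the spread from the 2 wild-type libraries and from other genes and called 18.4% of all genes lower. Rescaling the libraries left none of the 9 called (lowest adjusted p = 0.0505, for Cdc45). The genotype difference was not shown to differ between the sets by an interaction term (limma, adjusted p = 0.876 for Cdc45, 0.597 for Mrpl40 and 0.997 for Ranbp1). Without Chd7 deletion 1, the log2 fold changes of Ranbp1, Txnrd2 and Mrpl40 were above 0, at 0.035, 0.056 and 0.032, but wild type 1 and 2 then had no Chd7 deletion library of their set. Within libraries 3 and 4 the same genes were at -0.23, -0.10 and -0.11.

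The region is compact, and Hira, Mrpl40, Ranbp1, Cdc45 and Dgcr2 start head to head with another gene of the table on the opposite strand, within 1000 bases of it in the GENCODE annotation of GRCm38. The starts of Hira and Mrpl40, both described here, are 175 bases apart. Ranbp1 starts 53 bases from Trmt2a, Cdc45 208 bases from Ufd1, and Dgcr2 75 bases from Tssk2. The annotated starts of Ranbp1 and Cdc45 lie inside their partner (overlaps of 54 and 209 bases), and the use of strand in counting is not given in the sources used here, so some reads may be shared.

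The promoter windows of Cdc45, Ranbp1 and Mrpl40, the genes called in libraries 1 and 2 alone, are shown because each is shared with a head-to-head partner. They are RefSeq windows of 300 bases on GRCm38.p6, most of it before the RefSeq start, all on the minus strand. They are chr16:18811923-18812222 for Cdc45, chr16:18248645-18248944 for Ranbp1 and chr16:18876588-18876887 for Mrpl40. RefSeq and GENCODE starts can differ. The Mrpl40 window lies mostly inside the gene as GENCODE places it, with its start at 18876862. Capitals mark matches to the letters searched on either strand, and the window of Mrpl40 shares 212 bases with that of Hira, that of Cdc45 179 bases with that of Ufd1 and that of Ranbp1 288 bases with that of Trmt2a.
Cdc45: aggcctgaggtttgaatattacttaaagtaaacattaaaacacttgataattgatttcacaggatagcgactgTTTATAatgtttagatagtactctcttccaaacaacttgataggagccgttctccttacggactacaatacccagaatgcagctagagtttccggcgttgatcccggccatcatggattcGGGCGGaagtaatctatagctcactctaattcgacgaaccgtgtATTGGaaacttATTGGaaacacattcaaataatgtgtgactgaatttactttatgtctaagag
Ranbp1: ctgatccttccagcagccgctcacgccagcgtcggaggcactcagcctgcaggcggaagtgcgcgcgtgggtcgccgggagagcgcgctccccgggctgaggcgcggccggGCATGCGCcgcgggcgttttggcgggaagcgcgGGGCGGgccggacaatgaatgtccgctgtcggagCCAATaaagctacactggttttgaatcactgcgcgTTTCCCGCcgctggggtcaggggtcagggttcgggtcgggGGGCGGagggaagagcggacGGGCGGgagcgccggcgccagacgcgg
Mrpl40: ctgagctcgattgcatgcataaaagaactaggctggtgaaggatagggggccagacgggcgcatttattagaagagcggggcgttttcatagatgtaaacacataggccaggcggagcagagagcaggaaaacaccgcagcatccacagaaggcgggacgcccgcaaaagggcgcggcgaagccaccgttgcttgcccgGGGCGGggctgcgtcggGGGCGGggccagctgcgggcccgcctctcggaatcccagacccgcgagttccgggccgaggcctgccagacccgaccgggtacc

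All 9 genes have such a window (Med15 has 2, both inside the gene as GENCODE places it). The letters were searched on both strands in these and in all 32851 windows of the table. The GC box GGGCGG was found for 7 of the 9 genes and in 35.7% of all windows, and CCAAT for 5 of the 9 and in 37.4% of all windows. The E2F letters TTTCCCGC or TTTGGCGC were found for Ranbp1 alone among the 9 and in 1.56% of all windows. The NRF1 letters GCGCATGC were found for Ranbp1 and Med15 (2.71% of all windows), and the ETS letters CCGGAAG for Hira and Med15 (8.86%). Crkl held the CREB letters TGACGTCA (1.79%), Cdc45 the letters TATAAA (13.6%), and none of the 9 the YY1 letters AAGATGGCG (1.4%). The Cdc45 window is 38.7% G and C, against 72.0% for Ranbp1, 64.7% for Mrpl40 and a median of 52.7% over all windows. These matches are a description of the letters in the windows.

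Head-to-head partners did not always vary alike between libraries. Hira differed by 0.04 between Chd7 deletion 1 and the mean of 3 and 4 on the log2(FPKM + 1) scale, while Mrpl40, across the shared window, differed by -0.52. RefSeq places the Dgcr2 start elsewhere than GENCODE does, so its window shares 0 bases with that of Tssk2. The windows of Hira, Mrpl40 and Med15 are also displaced from the GENCODE starts. The Hira window ends at 18876799, before the GENCODE start at 18877037. The Med15 windows, from 17722851 to 17723197, lie inside the gene, which starts at 17732891 on the minus strand. Ufd1, which encodes a cofactor of the p97 segregase, had 9.70, 12.9 and 11.995 FPKM in Chd7 deletion libraries 1, 3 and 4, against 13.0, 11.6, 13.9 and 14.6 FPKM in wild-type libraries 1 to 4. It was lowest in Chd7 deletion 1 and highest in wild type 4, as Cdc45 was. Trmt2a, a tRNA methyltransferase gene, had 5.67, 7.64 and 6.5 FPKM in Chd7 deletion libraries 1, 3 and 4, against 6.53, 6.09, 7.18 and 7.51 FPKM in wild-type libraries 1 to 4. Like Ranbp1 it was lowest in Chd7 deletion 1, but its highest value was in Chd7 deletion 3. Neither partner passed the test (limma, adjusted p = 0.862 for Ufd1 and 0.972 for Trmt2a), and Tssk2 was below 1 FPKM in every library.

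Of the other genes of the region, 29 were in the table and 19 were tested, and none passed the test (0 called in limma, 1 at an unadjusted p under 0.05). The remaining 10 had means of at most 0.475 FPKM after deletion and 0.686 FPKM in the wild type. The median log2 fold change of the 19 was -0.05, with 15 of them below 0. Scarf2, which encodes a scavenger receptor of the membrane, had the lowest log2 fold change of the 28 genes of the region tested. It had 5.58, 6.4 and 7.19 FPKM in Chd7 deletion libraries 1, 3 and 4, against 8.96, 8.25, 8.84 and 10.4 FPKM in wild-type libraries 1 to 4. The groups did not overlap, and its log2 fold change was -0.45 with an SE of 0.101 (limma, adjusted p = 0.121). Scarf2 was called lower under the replicate block (-0.49, adjusted p = 0.0152). After median-ratio scaling without the block it was called lower as well (-0.41, adjusted p = 0.0383). When any single library was left out it was not called (adjusted p = 0.133 to 0.339). Klhl22, the gene of a ubiquitin ligase adaptor next to Scarf2, was at -0.20 (adjusted p = 0.882). At the other end, Arvcf, a catenin family gene, was at 0.17 (adjusted p = 0.831).

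**Figure D4:**
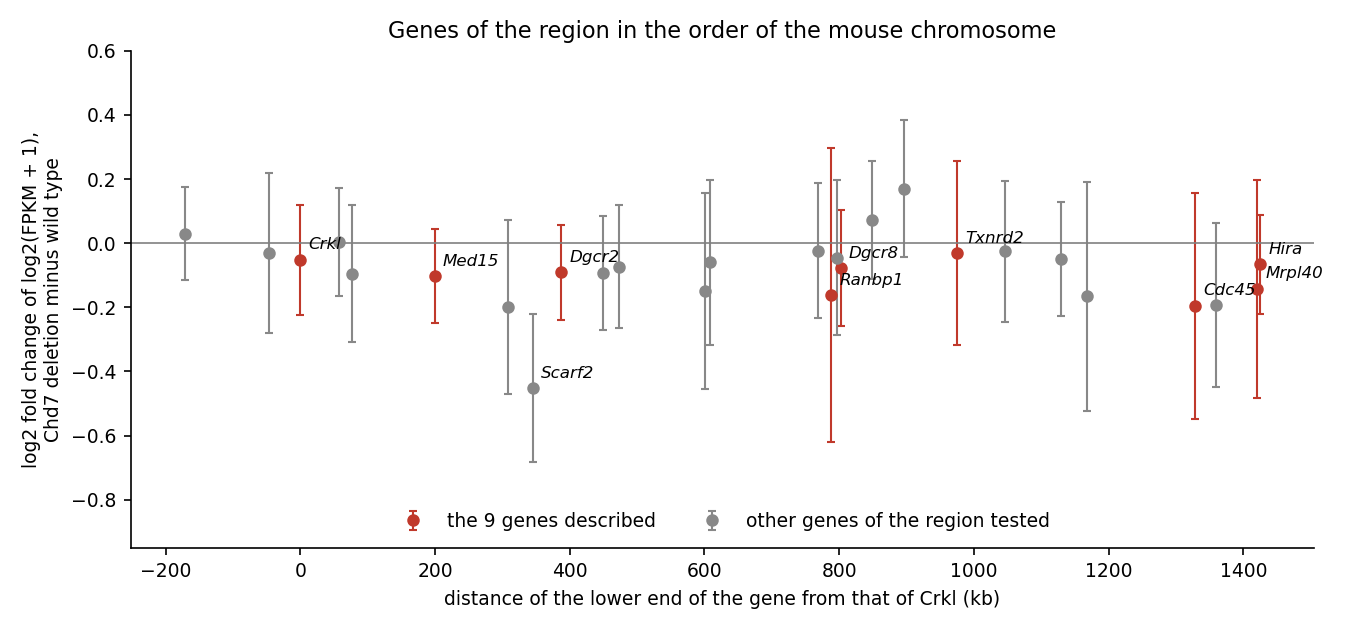
Log2 fold change of log2(FPKM + 1), Chd7 deletion minus wild type, with 95% intervals from limma, for the 9 genes (red) and 18 of the other 19 genes of the region tested (grey). The horizontal axis is the distance in kilobases along the mouse chromosome from the lower end of Crkl. Scarf2 is the lowest at -0.45, and the intervals of all 9 genes cross 0.

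The partners of the 9 genes were then read from lists of their complexes and pathways. None of the 10 lists, the other genes of the region included, held a called gene in limma without scaling, weights, block or covariate. With median-ratio or upper-quartile scaling alone Scarf2 was called lower and Pxn higher, against 156 of all genes tested in each fit. With weights per library Pxn was the listed gene called, against 213 of all genes tested. With the library set as covariate 2 listed genes were called higher and 12 lower, against 6.52% of all genes called. With median-ratio scaling added 3 were called higher and 3 lower, against 552 of the 11039 genes tested. In neither fit was the share called among the tested genes of the 10 lists above that of all genes. The lower ones with the set alone were Scarf2, Srrt, Mcm4, Mcm5, Gins2, Gins4, Ranbp3, Prdx6, Med6, Mrpl4, Mrpl55 and Fgfr1, and the higher ones Gab1 and Pxn (adjusted p = 0.00735 to 0.0491). Mcm4, Mcm5, Gins4, Med6 and Gab1 are named for these calls, after their values were seen. With scaling added, Scarf2, Fgfr1 and Mrpl4 (-0.27, adjusted p = 0.0365) were called lower, and Gab1, Pxn and Arvcf higher. The adjusted p-values below are from the fit without scaling, weights, block or covariate unless stated. Among 30 genes of the replicative helicase and of replication start, 0 were called, 4 had an unadjusted p under 0.05, and 29 were below 0 with a median of -0.13. Gins2, a subunit of the same helicase as Cdc45, was the lowest at -0.36 (adjusted p = 0.643), and Pcna, the sliding clamp, was at -0.30 (adjusted p = 0.886). Gins2 had 7.15, 11.6 and 11.9 FPKM in Chd7 deletion libraries 1, 3 and 4, against 12.1, 13.0, 13.7 and 13.6 FPKM in wild-type libraries 1 to 4. The groups did not overlap for it, and Chd7 deletion 1 was far below the other 6 libraries. Without that library Gins2 was at -0.15 and Pcna at -0.08.

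Other proteins of the large mitochondrial ribosomal subunit numbered 48 tested genes, of which 0 were called, 2 had an unadjusted p under 0.05 and 44 were below 0, with a median of -0.11. Mrpl55 and Mrpl4 were the lowest, at -0.33 and -0.30 (adjusted p = 0.625 and 0.601). The 29 genes of the small subunit had a median of -0.09 with 24 below 0 and 0 called (0 also at an unadjusted p under 0.05), and Mrps16 and Mrps21 were the lowest at -0.31 and -0.27 (adjusted p = 0.923 and 0.954). Without Chd7 deletion 1, Mrps16 was at -0.02 and Mrps21 at 0.194. Of 20 genes of the thioredoxin and peroxiredoxin system 0 were called, 0 at an unadjusted p under 0.05, and 14 were below 0 with a median of -0.12. Prdx6 and Txn1, a peroxiredoxin and the cytosolic thioredoxin, were at -0.26 and -0.21 (adjusted p = 0.882 and 0.952).

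The Mediator list held 32 tested subunits, with 0 called, 1 at an unadjusted p under 0.05, 26 below 0 and a median of -0.09, close to Med15 itself. Med10 and Med18 were at -0.30 and -0.20 (adjusted p = 0.78 and 0.629). The Ran cycle and transport list of 18 genes had a median of -0.05 with 15 below 0, 0 called and 1 at an unadjusted p under 0.05. Ranbp3, a cofactor of nuclear export, was at -0.19 (adjusted p = 0.586), and Rcc1, the exchange factor of Ran, at -0.15 (adjusted p = 0.933). Of 10 genes of the HIRA complex and H3.3 chaperones 8 were below 0 with a median of -0.11, 0 called and 0 at an unadjusted p under 0.05, and the histone chaperone genes Asf1a and Asf1b were at -0.20 and -0.19 (adjusted p = 0.923 and 0.933). The microprocessor and microRNA list of 15 genes had a median of -0.03 with 11 below 0, 0 called and 0 at an unadjusted p under 0.05. Ago1, an Argonaute gene, was at 0.20 and Srrt, which feeds transcripts to the microprocessor, at -0.16 (adjusted p = 0.925 and 0.844).

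Genes that act with Crkl lay on both sides of 0. Of 27 tested, 0 were called, 3 had an unadjusted p under 0.05, and 15 were below 0 with a median of -0.02. Pxn encodes paxillin, a focal adhesion protein that binds the adaptors of the Crk family, and it had 10.8, 12.1 and 12.3 FPKM in Chd7 deletion libraries 1, 3 and 4. In wild-type libraries 1 to 4 it had 8.94, 9.1, 8.83 and 9.93 FPKM, all below the Chd7 deletion libraries. Fgfr1, a receptor for fibroblast growth factors, had 16.7, 17.6 and 17.7 FPKM in Chd7 deletion libraries 1, 3 and 4, against 20.5, 21.3, 21.2 and 22.2 FPKM in wild-type libraries 1 to 4. The groups did not overlap for it either. The log2 fold changes were 0.32 for Pxn and -0.28 for Fgfr1 (limma, adjusted p = 0.14 and 0.139). Both passed the threshold under the replicate block, Pxn higher at 0.32 (adjusted p = 0.0427) and Fgfr1 lower at -0.28 (adjusted p = 0.0411). With the block and median-ratio scaling together Fgfr1 did not (-0.21, adjusted p = 0.051), while Pxn did (0.39, adjusted p = 0.00512).

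**Figure D5:**
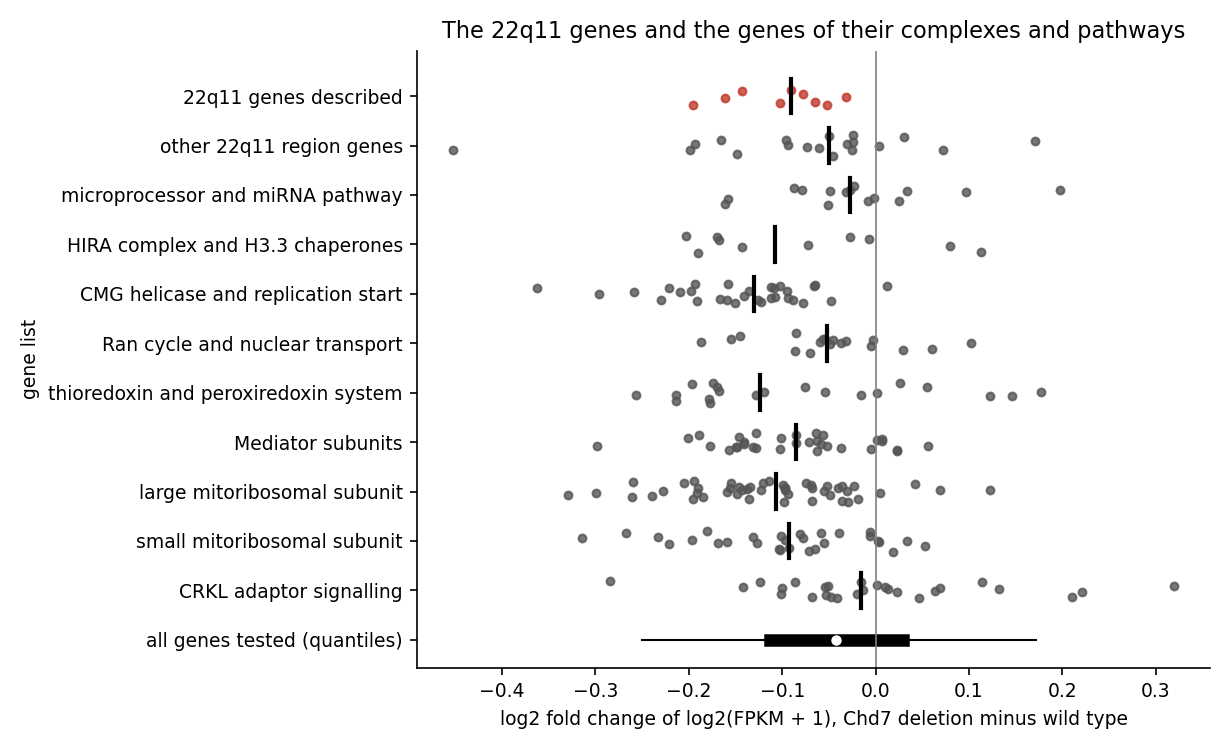
Log2 fold change of log2(FPKM + 1), Chd7 deletion minus wild type, for every tested gene (points) of the 9 genes and of 10 lists of other genes of the region, complexes and pathways, with list medians as black bars. The bottom row gives the quantiles of all genes tested, with its 0.25 to 0.75 range as the thick bar and its 0.05 to 0.95 range as the thin line. List medians run from -0.13 to -0.02. The median of all genes is -0.04, with the medians of the microprocessor and CRKL lists above it and the others below.

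Of 12 close partners of the 9 genes by role, picked with their values in view, none was called in the fit without block or covariate. The lowest were Asf1a at -0.20, Txn2, the mitochondrial thioredoxin gene, at -0.18 and Ran at -0.15 (adjusted p = 0.923, 0.911 and 0.954). In libraries 1 and 2 alone, with the single Chd7 deletion library, these 3 were at -0.44, -0.39 and -0.40. With median-ratio scaling added to that fit they were nearer 0, at -0.35, -0.29 and -0.30. Crk, the paralog of Crkl, averaged 24.7 ± 2.02 FPKM (SD, n = 3) after deletion and 25.6 ± 1.61 FPKM (SD, n = 4) in the wild type. Drosha averaged 26.6 ± 1.23 FPKM after deletion and 27.5 ± 1.35 FPKM in the wild type, more than Dgcr8 at 10.2 ± 0.701 FPKM after deletion and 10.9 ± 0.757 FPKM in the wild type. Ubn1, a subunit of the HIRA complex, averaged 15.1 ± 0.363 FPKM after deletion and 15.4 ± 0.369 FPKM in the wild type, and Cabin1, another subunit, 10.2 ± 0.253 FPKM after deletion and 10.3 ± 0.278 FPKM in the wild type. Txnrd1, the cytosolic thioredoxin reductase, was well above Txnrd2, at 49.2 ± 2.28 FPKM after deletion and 53.6 ± 2.75 FPKM in the wild type. The 95% intervals of the log2 fold change were -0.25 to 0.14 for Crk, -0.22 to 0.12 for Drosha, -0.17 to 0.12 for Ubn1, -0.15 to 0.14 for Cabin1 and -0.30 to 0.06 for Txnrd1.

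The genes whose values over the 7 libraries ran most like those of Ranbp1 were Nasp and Nudcd2 (Pearson's r of log2(FPKM + 1) of 0.997 and 0.996). For Mrpl40 they were Lsm8 and Zfp326 (0.999 and 0.998), for Cdc45 Prkd3 and Cdca2 (0.997 and 0.996), and for Txnrd2 Dpf2 and Actr3 (0.993 and 0.991). Crkl ran most like Cbx5 and Spry2 (0.994 and 0.993), Med15 like Rpap1 and Arhgef40 (0.988 and 0.984), and Dgcr8 like Noa1 and Tamm41 (0.984 and 0.979). Dgcr2 ran most like B4galt2 and Ism1 (0.983 and 0.979), and Hira like Ankrd54 and Ints5 (0.974 and 0.962). For each gene these are the highest over all other genes tested, in 7 libraries that share the difference between library numbers, and are given as a description. Among the 9 genes themselves, r was highest for Ranbp1 with Mrpl40 (0.961) and lowest for Dgcr2 with Txnrd2 (0.271).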

How the data were processed

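FPKM for the 7 libraries, 1 column each, are the values the authors deposited. The submitters' processing notes name mm10, HISAT2, SAMtools, Partek, Trimmomatic 0.38 and bcl2fastq 2.18.0.12, without role or order. For annotation, filters and use of strand in counting nothing is stated in the sources used here. Per the labels' protocols, RNA of RIN 9.5 or above was depleted of ribosomal RNA and made into strand-specific libraries. FPKM divides by the library total, so abundant transcripts lower all others. Of 19169 rows, 25 with a date for a symbol were left out, so Sept5 of the region is not analysed here.

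The 11039 genes that averaged 1 FPKM or more entered a linear model of log2(FPKM + 1), fitted in R 4.3.3 by limma 3.58.1 with a variance trend over intensity. Tests were 2-sided, with Benjamini-Hochberg adjustment over all of them at 0.05. The labels name no litters or embryo numbers, so p-values measure the spread between libraries, which may be partly technical. Same-numbered libraries deviated together (r of deviations from the group means of 0.704, 0.399 and 0.775 for numbers 1, 3 and 4). Libraries of the same set with unlike numbers did so too. There r was 0.592 for Chd7 deletion 1 with wild type 2, 0.25 for 3 with 4 and 0.377 for 4 with 3. The values show the library sets, and do not establish a pairing by number. The labels give no reason. Alternatives changed the pseudocount, filter, scaling, variance model, design and libraries. The steps were tested on simulated data. For the linear model the simulated noise was independent between libraries, with no difference between library sets, so designs for the sets were not checked by it. Figures were drawn with matplotlib 3.10.9 and tables made with pandas 2.3.3 and numpy 2.4.6 under Python 3.11.15. Symbols were matched to GENCODE M21 (99.35% of tested genes).

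The 9 genes and all lists were chosen with earlier results of these data known. Named from each list were the called genes or, with none, the 2 with the largest change, and for each of the 9 genes its head-to-head neighbour and the 2 genes most like it. The result for 1 such gene is not reported here.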

Additional observations from a re-analysis of the deposited data

Results flagged for a closer look

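Ranbp3, a cofactor of nuclear export, had 19.98 FPKM in wild type 4, apart from the other wild-type libraries, of which the next was 18.7 FPKM and the lowest 18.5 FPKM. It was found by comparing the gap to the nearest library with the range of the group, over 32 genes named in the text, and chance sets apart about 1 in 20 such groups.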

How the results depend on the processing

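No alternative called any of Crkl, Dgcr2, Hira, Med15, Dgcr8 or Txnrd2, and the median of the 9 genes stayed between -0.13 and -0.03. The count of called genes over the table was 98. It was 62 with no filter, 32 with a mean of at least 5 FPKM, 156 with median-ratio scaling, 156 with upper-quartile scaling, 213 with weights per library, 366 with the replicate block, 720 with the library set as covariate and 2263 in replicates 1 and 2 alone. With alternatives chosen after seeing the data, it was 613 with the replicate block and median-ratio scaling, 552 with the library set and that scaling, and 1044 in replicates 1 and 2 alone with it. Leaving out a library gave 4 to 78 calls. It was 4 when wild type 3 or Chd7 deletion 4 was dropped, 12 when Chd7 deletion 3 was, and 35, 40 and 53 when wild type 2, 1 and 4 were. The block changed no call of the 9 genes. The cause of these shifts was not tested.

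Signs near 0 turned for some genes. With median-ratio scaling Txnrd2 was at 0.00721. With upper-quartile scaling Crkl was at 0.00585, Txnrd2 at 0.0168 and Trmt2a at 0.00655. Hira was at 0.00311 in replicates 1 and 2 alone. With the library set and scaling Crkl was at 0.0018 and Hira at 0.00143. In replicates 1 and 2 alone with scaling Crkl was at 0.0704, Hira at 0.1002, Txnrd2 at 0.027 and Med18 at 0.0073, and in 3 and 4 alone with scaling Txn1 was at 0.0436 and Mrps21 at 0.0452. Leaving out single libraries gave -0.285 to 0.0348 for Ranbp1, -0.256 to 0.0318 for Mrpl40, -0.125 to 0.056 for Txnrd2, -0.296 to 0.00408 for Asf1b, -0.448 to 0.133 for Txn1, -0.658 to 0.194 for Mrps21 and -0.142 to 0.0446 for Trmt2a. Some listed genes kept their sign and moved by more than 1.5 times when a library was left out: Cdc45 ran from -0.31 to -0.03, Mrps16 from -0.46 to -0.02, Gins2 from -0.48 to -0.15 and Pcna from -0.44 to -0.08, each nearest 0 without Chd7 deletion 1.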
